A study of Mus musculus and Mus musculus musculus x Mus musculus castaneus with 8 samples.

Results

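Peaks of open chromatin were examined around 4 immediate-early genes of the mouse, Fos, Jun, Junb and Myc. The members are all peaks of 5 ATAC-seq peak lists that overlapped 1 of 4 windows of mm9, on chromosome 12 from 86765000 to 86870000 for Fos, on chromosome 4 from 94650000 to 94780000 for Jun, on chromosome 8 from 87450000 to 87555000 for Junb and on chromosome 15 from 61765000 to 61875000 for Myc. The windows held 104 peaks of 151729 in all. ATAC-seq uses a transposase that inserts sequencing adaptors into accessible DNA, and a peak is a place where such insertions pile up. The lists describe 8 libraries of 5 conditions. C2C12 cells, a mouse myoblast line labelled with strain C3h, were assayed from 50000 cells (2 libraries) and from 1000 cells (2 libraries). The other conditions are mouse embryonic fibroblasts (MEFs) from embryos of a cross with Mus musculus castaneus, permeabilized and assayed from 3000 cells each, as donor MEFs before nuclear transfer (NT, 1 library), 48 h after NT into Xenopus laevis oocytes (2 libraries of 10 pooled oocytes) and at the same 48 h in oocytes made to overexpress Toca1, an activator of actin polymerization (1 library). Oocytes of this kind transcribe the transplanted nuclei without dividing them.

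Each condition has 1 list, called at a false discovery rate of 0.01, which gives the position of a peak and no height or read number. No replicate spread and no test between conditions can therefore be given, and a missing peak means only that the signal did not pass the threshold at an unknown depth. The lists differed in size, with 39592 peaks in donor MEFs, 8257 after NT, 16412 after NT with Toca1, 52697 in C2C12 from 50000 cells and 34771 in C2C12 from 1000 cells. Between these lists, the effect of a treatment cannot be told apart from that of a library or its depth. Positions are 1-based. Gene starts were not placed in mm9 here, so positions are given as the distance of a peak's centre from the midpoint of its window, positive toward higher coordinates. No peak is assigned to a promoter or to a gene. A window is named after 1 gene but may hold others, so a peak in it may belong to a neighbouring gene. For the same reason the cell types were not checked at their marker genes.

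Immediate-early genes are transcribed within minutes of a stimulus such as serum or growth factors, without new protein synthesis, because the factors that switch them on are already bound or waiting in the cell. Fos encodes a subunit of the transcription factor AP-1 that binds DNA only when paired with a Jun protein. Jun encodes the partner that can also pair with itself, and Junb a relative that often acts more weakly or against Jun. Myc encodes a basic helix-loop-helix factor that pairs with Max at E-boxes and drives growth and cell cycle genes. These loci are known for promoters that stay accessible in cultured fibroblasts and for distal enhancers that respond to stimulation. In the RefSeq gene order of GRCm38.p6, the protein-coding neighbours of Fos are Tmed10 and Jdp2, which encodes an AP-1 repressor. Those of Jun are Mysm1 and Fggy, and those of Junb are Prdx2 and Hook2. Myc is followed by the long noncoding RNA gene Pvt1.

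The promoters of the AP-1 genes are shown, as RefSeq gives them for GRCm38.p6, so that the letters before each gene's start can be compared. That build is not the build of the peaks, so no distance was taken between them. The sequences are the 250 bases before the annotated start, 5′ to 3′ on the strand of the gene. Fos lies on the plus strand at chr12:85473640-85473889, Jun on the minus strand at chr4:95052223-95052472 and Junb on the minus strand at chr8:84978749-84978998. Capitals mark matches, on either strand, to 8 motifs: the cAMP response element TGACGTCA, its AP-1-like variant TGACATCA, the AP-1 site TGACTCA, the E-box CACGTG, the CCAAT box, the GC box GGGCGG (written here from its other strand), the TATA box TATAAA and the CArG box of serum response elements. None of the matches overlapped each other. The promoter of Myc was not matched in the table.
Fos: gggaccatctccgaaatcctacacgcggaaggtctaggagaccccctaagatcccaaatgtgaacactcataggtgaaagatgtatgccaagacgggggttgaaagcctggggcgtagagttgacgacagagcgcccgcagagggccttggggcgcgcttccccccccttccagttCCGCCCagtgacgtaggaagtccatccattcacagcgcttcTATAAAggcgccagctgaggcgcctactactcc
Jun: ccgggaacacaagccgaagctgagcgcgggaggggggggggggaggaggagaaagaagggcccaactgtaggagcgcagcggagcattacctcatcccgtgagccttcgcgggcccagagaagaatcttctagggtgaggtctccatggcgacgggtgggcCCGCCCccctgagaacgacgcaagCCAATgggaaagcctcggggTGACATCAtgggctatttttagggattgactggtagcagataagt
Junb: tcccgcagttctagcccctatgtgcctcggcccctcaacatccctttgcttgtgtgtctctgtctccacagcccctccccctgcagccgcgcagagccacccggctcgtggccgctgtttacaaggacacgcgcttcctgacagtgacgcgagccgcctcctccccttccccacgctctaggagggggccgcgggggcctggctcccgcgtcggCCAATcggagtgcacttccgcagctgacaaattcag

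The 3 promoters held different sets of these letters. Fos had a TATA box 33 to 28 bases before its start and a GC box 74 to 69 bases before it. Jun had the AP-1-like variant 45 to 38 bases before its start, a CCAAT box 65 to 61 bases before it and a GC box 89 to 84 bases before it. Junb had a CCAAT box 36 to 32 bases before its start. Of all 32851 promoter windows of this length, 12.4% held a TATA box, 32.7% a GC box, 33.8% a CCAAT box and 2.93% the AP-1-like variant. The motifs without a match in these 3 windows were found in 1.55% (cAMP response element), 4.46% (AP-1 site), 6.02% (E-box) and 1.47% (CArG box) of all windows. Only complete matches were counted, so a site that departs from these letters was missed. The Fos window, for example, holds tgacgtag, which begins like the cAMP response element but ends differently. Bases farther from the start than these windows were not searched. A motif without a match is therefore not shown to be absent from a gene's control region. The G and C content was 58.4% for Fos, 61.2% for Jun and 66.4% for Junb, against a median of 52.4%. These matches are descriptions of letters and do not show that a factor was bound.

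All 4 windows held more peaks in the donor list than in either list after NT. Those lists differ in size, with 39592 peaks in donor MEFs, 8257 after NT and 16412 with Toca1. The counts here are not adjusted for list size, and the ratios to each list's mean follow below. Donor MEFs had 7 peaks in the Fos window, 10 in the Jun window, 12 in the Junb window and 7 in the Myc window. After NT the same windows held 0, 1, 2 and 1 peaks. After NT with Toca1 they held 2, 0, 4 and 3 peaks. C2C12 cells had 6, 9, 18 and 10 peaks in the list from 50000 cells and 2, 5, 4 and 1 peaks in the list from 1000 cells. The loci differed from each other in what was listed after NT, without a test of that difference: peaks were found at Jun only without Toca1, at Fos only with Toca1, and at Junb and Myc in both.

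**Figure D1:**
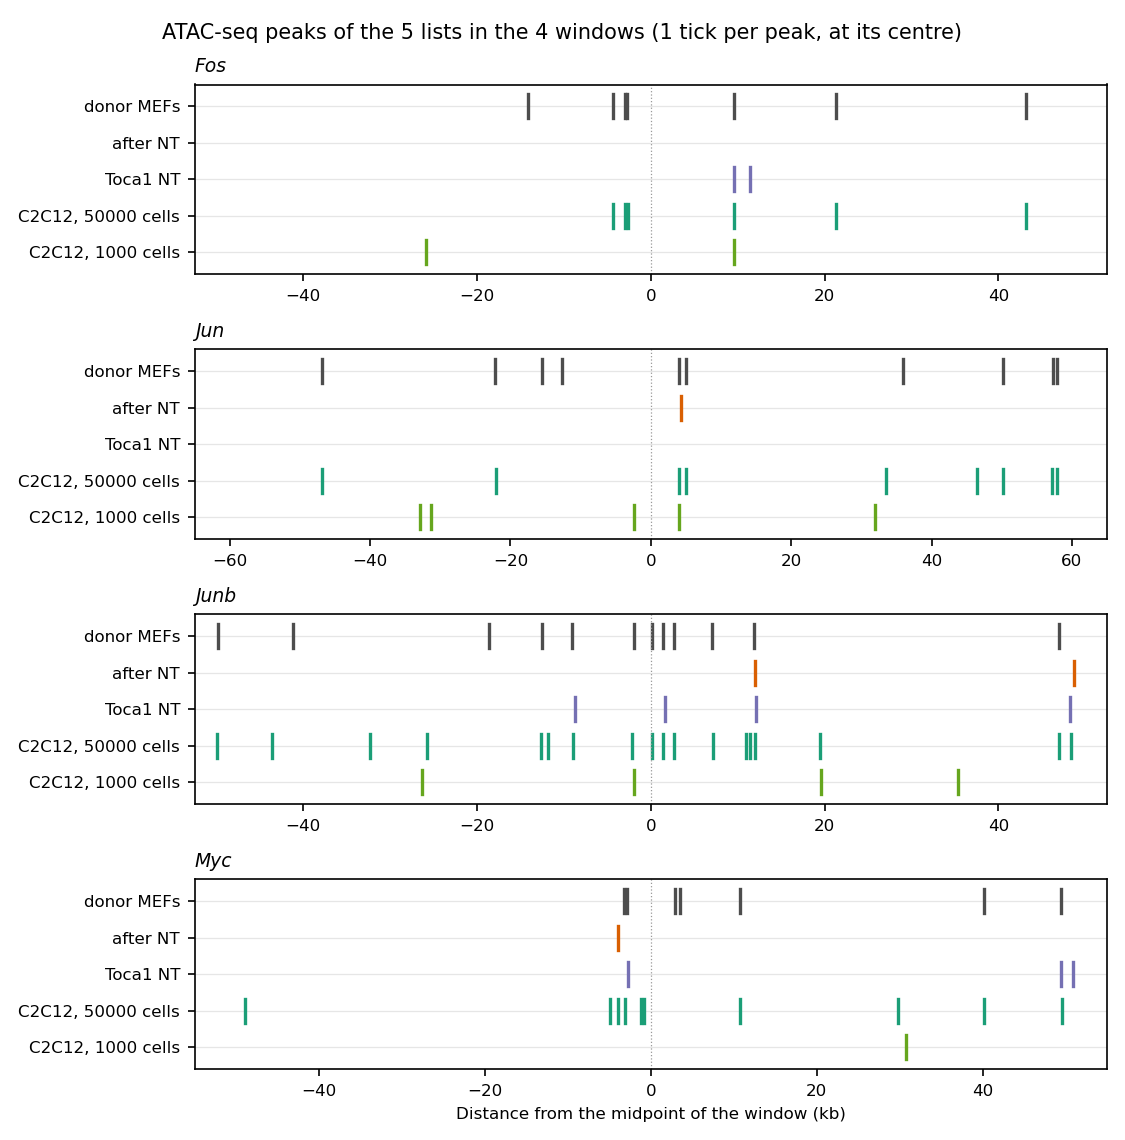
Position of every peak in the windows of Fos, Jun, Junb and Myc, with the distance of the peak centre from the window midpoint in kb on the x axis and 1 row per list. The donor MEF and 50000-cell C2C12 rows carry most ticks, the row after NT has no tick at Fos and the Toca1 row has none at Jun.

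The size of a list sets how many peaks a window can be expected to hold, so each count was set beside the mean over all tiles of the same length laid end to end along the chromosomes. In donor MEFs the windows held 4.43 (Fos), 5.11 (Jun), 7.59 (Junb) and 4.22 (Myc) times the mean number of peaks. The mean includes tiles without any peak, 46.3% of those of the Fos window's length in donor MEFs. Windows around other genes were not counted, so the ratios do not set these loci apart from other genes. At Junb, 0.108% of tiles of that length held as many donor peaks. In C2C12 from 50000 cells the ratio was 2.85 to 8.55, again highest at Junb. After NT the single peaks at Jun and Myc were 2.45 and 2.90 times the mean, and the 2 peaks at Junb 6.07 times. With Toca1 the ratios were 3.05 (Fos), 0 (Jun), 6.1 (Junb) and 4.36 (Myc). A tile of the Fos window's length held no peak after NT in 77.0% of cases, so an empty window was the usual state of that list. Among the 416 tiles with exactly 7 donor peaks, as at Fos, 35.1% held no peak after NT.

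**Figure D2:**
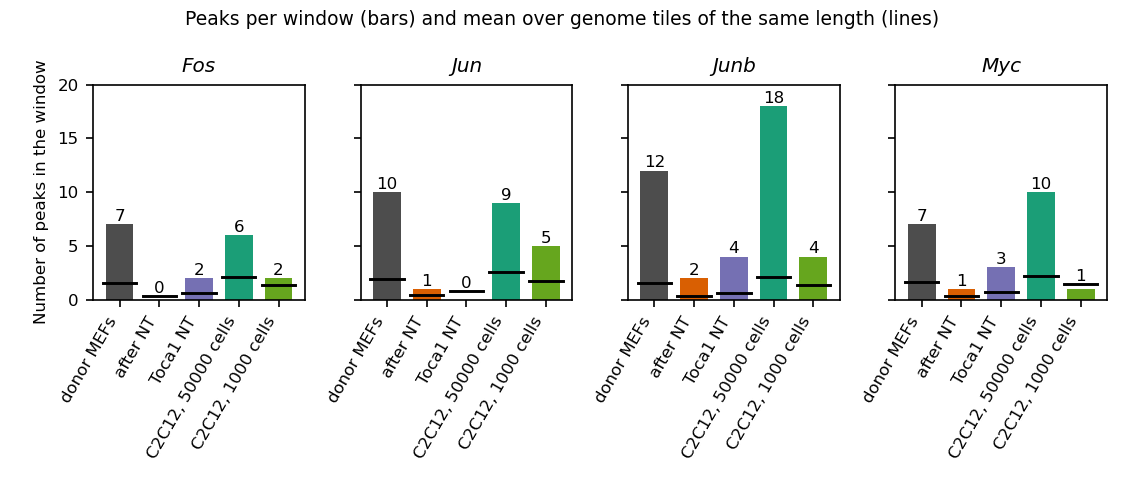
Number of peaks in each window by list (bars, with the count above), beside the mean number over genome tiles of the same length in the same list (black lines). The Junb bars reach 12 peaks in donor MEFs and 18 in C2C12 from 50000 cells, and the bars after NT reach at most 2.

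Overlapping peaks of the 5 lists were joined into 61 sites, 9 at Fos, 16 at Jun, 22 at Junb and 14 at Myc. Of these, 31 were in 1 list, 21 in 2 lists, 6 in 3 lists and 3 in 4 lists, and no site was in all 5. Over the whole lists, 5.62% of C2C12 peaks from 50000 cells were overlapped by a peak from 1000 cells. Absence from the 1000-cell list was therefore the usual state, here and below, and says little about a site. The most frequent pattern, with 19 sites, was a peak in donor MEFs and C2C12 from 50000 cells alone. Over the whole lists, 64.6% of donor peaks overlapped a C2C12 peak from 50000 cells. Only 22.3% of donor peaks were found after NT or with Toca1, so absence from both lists was the usual state, here and below. The share of this pattern over all sites was not computed, so it does not set these loci apart. The 3 sites in 4 lists belonged to Fos, Jun and Junb, and each had a different absent list.

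At Fos, 3 donor peaks lay close together below the midpoint. They were centred 4.31, 3.01 and 2.70 kb below it, with widths of 279, 311 and 203 bp. C2C12 from 50000 cells had peaks over all 3, of 372, 241 and 376 bp. None of the 3 was listed after NT, with Toca1 or in C2C12 from 1000 cells. The nearest Toca1 peak was 11950 bp from the last of them and the nearest peak after NT 95280 bp, outside the window. Above the midpoint the pattern was different.

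The Fos site 9.60 kb above the midpoint was in 4 lists, which placed it almost identically. It ran from 86826840 to 86827316 in donor MEFs (477 bp), from 86826857 to 86827307 with Toca1 (451 bp), from 86826850 to 86827363 in C2C12 from 50000 cells (514 bp) and from 86826863 to 86827281 in C2C12 from 1000 cells (419 bp). The Toca1 and donor centres differed by 4 bp. The median difference between overlapping peaks of these lists was 143 bp. The list after NT had no peak here, and its nearest was 82870 bp from the donor peak. A further Toca1 peak of 284 bp lay 11.41 kb above the midpoint, in no other list, 1457 bp from the donor peak.

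The widest Fos peaks of donor MEFs (635 bp) and C2C12 from 50000 cells (966 bp) were farther out, 21.30 kb above the midpoint. Neither list after NT held this site. The last donor site, 43.20 kb above the midpoint, had 304 bp in donor MEFs and 242 bp in C2C12. The donor peak of 336 bp centred 14.16 kb below the midpoint was the 1 Fos donor peak without a C2C12 counterpart. All 6 C2C12 peaks of the 50000-cell list in this window were on donor peaks.

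At Jun, 1 site carried the widest peaks of both C2C12 lists and the only peak after NT. It lay 3.95 kb above the midpoint. C2C12 from 50000 cells had a peak of 1290 bp there, from 94718304 to 94719593, and only 0.7% of that list was wider. Donor MEFs had 729 bp, from 94718667 to 94719395. C2C12 from 1000 cells had 727 bp, from 94718730 to 94719456, and only 0.3% of that list was wider. After NT the peak was 391 bp, from 94719158 to 94719548.

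The Jun peak after NT was not a narrower copy of the donor peak in the same place. It overlapped 238 bp of the donor peak, which is 32.6% of the donor width. Its start was 491 bp and its end 153 bp higher than in donor MEFs, so that its centre lay 322 bp higher. Across all overlapping pairs of these lists the median difference of centres was 93 bp. The share of pairs that differed by as much as the Jun pair was not computed, so the shift is not set apart from the lists. The whole peak after NT lay within the 1290-bp C2C12 peak. A second donor peak of 356 bp, 317 bp beyond the peak after NT, ended at 94720221, the same base as its C2C12 counterpart of 394 bp.

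The Toca1 list had no peak in the Jun window, and its nearest peak was 72552 bp from the donor peak of the shared site. Among all tiles of the same length with exactly 10 donor peaks, 7.14% held no Toca1 peak and 3.17% held a peak after NT but none with Toca1. Of the 1813 peaks after NT that were at least 391 bp wide and lay on a donor peak, 17.2% were not overlapped by a Toca1 peak.

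Over the whole list, 22.3% of donor peaks were found in either list after NT, so absence was the usual state. The donor peak 5.04 kb above the midpoint was in neither list. Nor were the other 8 Jun donor peaks, all more than 12 kb from the midpoint. The widest donor peak of the window was among them, at 820 bp and 46.89 kb below the midpoint, and C2C12 from 50000 cells had 695 bp there. A pair of donor peaks 57.25 and 57.81 kb above the midpoint had 410 and 389 bp, with 457 and 566 bp in C2C12. Of the 10 Jun donor peaks, 7 were shared with C2C12 from 50000 cells. The 3 that were not were 254, 335 and 514 bp wide.

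**Figure D3:**
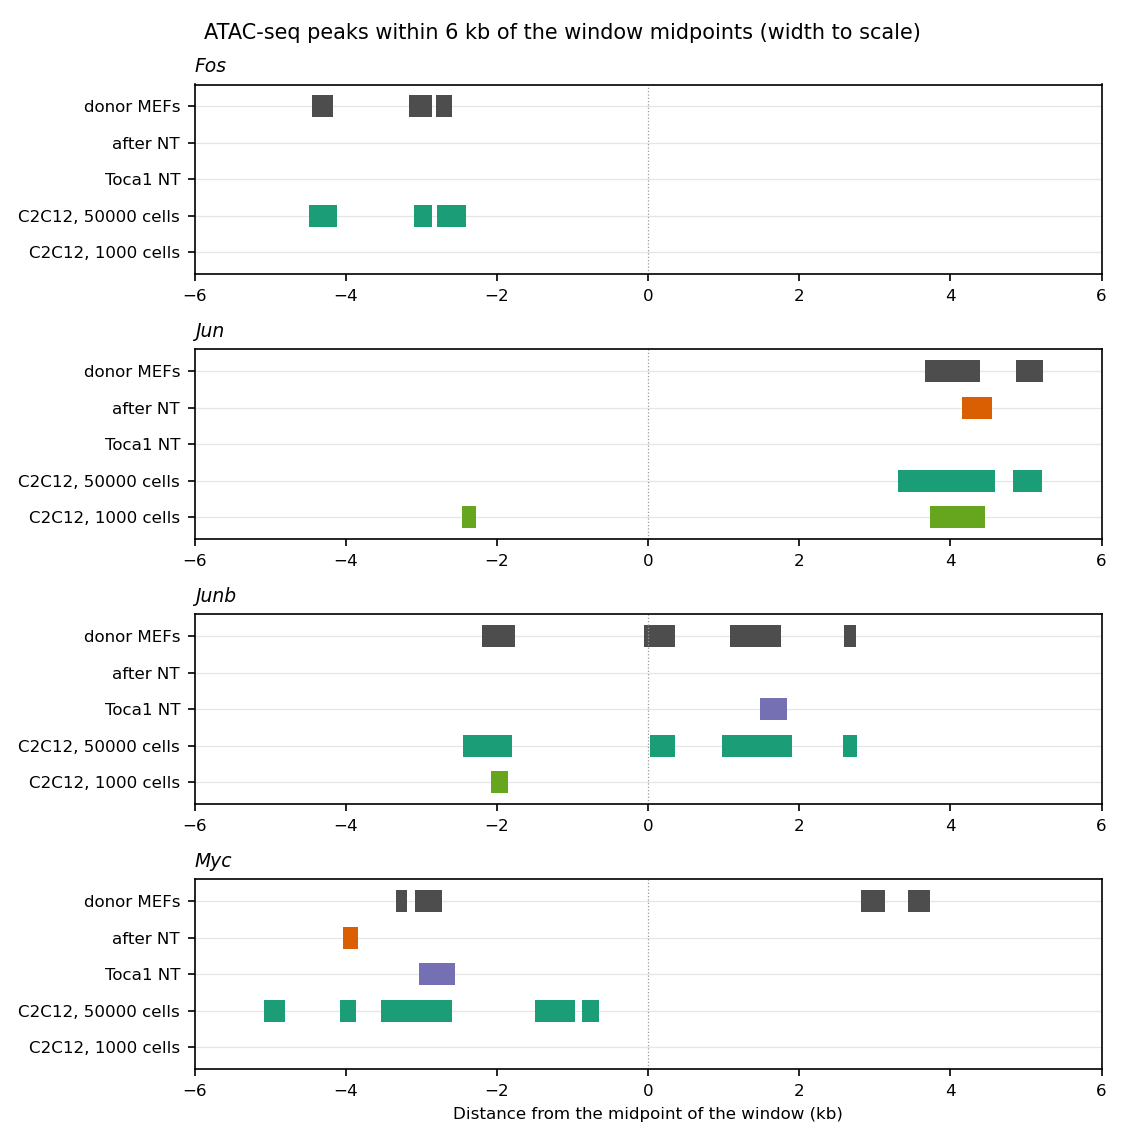
Peaks within 6 kb of the window midpoints, drawn to scale, with the distance from the midpoint in kb on the x axis and 1 row per list. At Jun the peak after NT is displaced to the right of the donor peak, and at Myc the peaks after NT and with Toca1 do not overlap each other.

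At Junb, both lists after NT held more peaks than at the other loci, 2 without Toca1 and 4 with it. The site 12.09 kb above the midpoint was the 1 site of all 61 with a peak in donor MEFs, after NT and with Toca1. Its width was 347 bp in donor MEFs, 317 bp after NT, 703 bp with Toca1 and 563 bp in C2C12 from 50000 cells. The donor and Toca1 peaks started at the same base, 87514242, and the Toca1 peak ended 356 bp farther. The peak after NT covered 84.4% of the donor peak, with its centre 39 bp away. The Toca1 peak here was the widest of its list in all 4 windows.

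Closer to the midpoint, 4 donor peaks of 442, 401, 666 and 168 bp lay within 3 kb. C2C12 from 50000 cells had peaks over all 4, of 647, 327, 921 and 177 bp. Toca1 had a peak on 1 of them, centred 1.66 kb above the midpoint. It was 363 bp wide and overlapped 41.3% of the 666-bp donor peak, with its centre 239.5 bp higher. After NT no peak was listed within 10 kb of the midpoint. The site nearest the midpoint, 0.15 kb above it, was in donor MEFs (401 bp) and C2C12 from 50000 cells (327 bp) alone.

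A pair of Junb sites showed peaks after NT or with Toca1 beside rather than on donor peaks, the second with Toca1 only. The site 48.41 kb above the midpoint had no donor peak, the nearest being 952 bp from the Toca1 peak. It had 256 bp after NT, 389 bp with Toca1 and 563 bp in C2C12 from 50000 cells. The peaks after NT and with Toca1 were 62 bp apart, and both overlapped the C2C12 peak. The site 8.83 kb below the midpoint had a donor peak of 212 bp and a Toca1 peak of 332 bp with 36 bp between them, and a C2C12 peak of 375 bp joined them. Of the 18 peaks of C2C12 from 50000 cells at Junb, 10 were on donor peaks and 4 were overlapped by a Toca1 peak. Over the whole list the shares were 48.4% and 16.5%.

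The remaining Junb peaks belonged to the somatic lists alone. Donor peaks of 415, 359, 656 and 293 bp, centred 49.85 and 12.48 kb below and 7.07 and 46.99 kb above the midpoint, had C2C12 counterparts of 426, 635, 420 and 296 bp. At the last of these the starts differed by 2 bp and the ends by 5 bp. Donor peaks of 283 and 489 bp, 41.20 and 18.58 kb below the midpoint, had none. C2C12 from 50000 cells had 6 peaks in no other list, of 245 to 424 bp. A pair of them, of 299 and 271 bp, lay 10.90 and 11.39 kb above the midpoint, just before the site that was found in 4 lists.

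At Myc, the peaks near the midpoint lay in different places in different lists. C2C12 from 50000 cells had its widest Myc peak, of 939 bp, from 61816465 to 61817403. Donor MEFs had 2 peaks inside it, of 153 and 356 bp, the first at 3 bp above the narrowest width in any list, 150 bp. Toca1 had a peak of 471 bp, from 61816979 to 61817449, which overlapped 82.0% of the 356-bp donor peak. After NT no peak overlapped either donor peak.

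The 1 peak after NT at Myc was 194 bp wide, from 61815964 to 61816157, and 507 bp from the nearest donor peak. A C2C12 peak of 207 bp, from 61815923 to 61816129, covered most of it. It lay 821 bp from the Toca1 peak. C2C12 cells also had peaks of 532 and 230 bp, centred 1.23 and 0.76 kb below the midpoint, the latter the nearest site to it, where no other list had one. Donor MEFs instead had peaks of 317 and 293 bp, 2.97 and 3.58 kb above the midpoint, where C2C12 cells had none.

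Several distal Myc sites were shared by donor MEFs and C2C12 from 50000 cells. The widest donor peak, of 689 bp at 10.74 kb above the midpoint, had a C2C12 counterpart of 656 bp, and a donor peak of 498 bp at 40.14 kb had one of 578 bp. Neither was listed after NT or with Toca1. The site 49.56 kb above the midpoint had 439 bp in donor MEFs, 748 bp in C2C12 from 50000 cells and 532 bp with Toca1, and the Toca1 peak contained the whole donor peak. A Toca1 peak of 476 bp followed at 50.96 kb, in no other list and 1066 bp from the donor peak.

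Across the 4 windows, 2 of 36 donor peaks overlapped a peak after NT (5.56%, 95% Wilson interval 1.54% to 18.1%). The share over all donor MEF peaks was 9.73%. With Toca1 it was 5 of 36 (13.9%, interval 6.08% to 28.7%), against 19.7% of all donor peaks. Both background shares lie inside the intervals, so the loci were not distinguishable from the rest of the list at this number of peaks. Wilson intervals here cover counting error over peaks only, and neighbouring peaks are not independent.

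The donor peaks that were found in either list after NT were 6 of 36 (16.7%), against 22.3% of all donor peaks. They were 1 at Fos, 1 at Jun, 2 at Junb and 2 at Myc, with a median width of 458 bp and a range of 347 to 729 bp. The other 30 had a median of 346 bp and a range of 153 to 820 bp, so the widths of the classes overlapped. All 6 overlapped a peak of C2C12 from 50000 cells, as did 91.0% of all donor peaks found in either list. Among the 28 donor peaks shared with C2C12 from 50000 cells, 2 were kept after NT and 5 with Toca1, against 14.0% and 28.0% of all such donor peaks. Of the 8 other donor peaks 0 were kept in either list, against 5.70% of all donor peaks not shared with C2C12, so neither count sets these loci apart from the list. At the shares found for all donor peaks of the same width quartile, 3.0 of the 36 would be kept after NT and 6.3 with Toca1.

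No peak after NT lay far from a donor site. Of the 4 peaks after NT, 0 had a gap of 5000 bp or more to the nearest donor peak (Wilson interval 0% to 49.0%), against 38.1% of the whole list. Of the 9 Toca1 peaks, 0 did (interval 0% to 29.9%), against 39.7% of the list. The windows left less room for such peaks, since 47.4% of their length lay that far from a donor peak, against 87.1% of all chromosomes. In the 917 tiles of 105 kb with at least 7 donor peaks, 16.2% of the 1098 peaks after NT and 18.6% of the 2224 Toca1 peaks lay that far away, and both values lie inside the intervals. The peaks that were not on donor peaks were between 36 and 1457 bp from one.

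**Figure D4:**
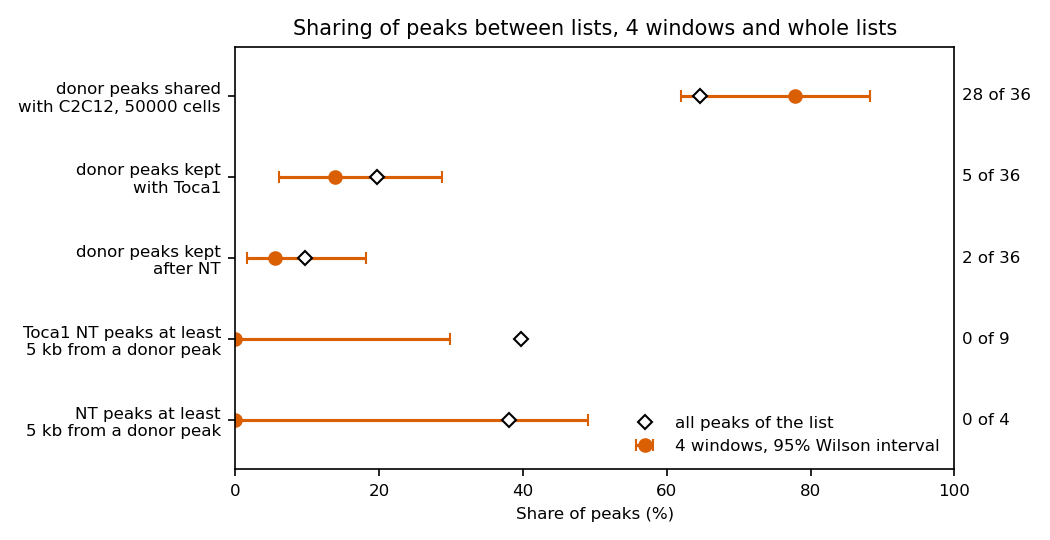
Share of peaks in percent for the 4 windows (orange points with 95% Wilson intervals, counts at the right) and for all peaks of the same list (open diamonds). Of the 5 intervals shown, only that of Toca1 peaks at least 5 kb from a donor peak leaves out the whole-list value, with 0 of 9 beside 39.7%, while the value in tiles rich in donor peaks, 18.6%, lies inside it.

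Of the 4 peaks after NT, 2 overlapped a donor peak and 4 a C2C12 peak of the 50000-cell list. The shares over the whole list were 46.9% and 50.6%. Of the 9 Toca1 peaks, 5 overlapped a donor peak and 7 a C2C12 peak, against 45.5% and 49.6%. The windows held 2.85 to 8.55 times the mean number of C2C12 peaks from 50000 cells, which leaves more room for overlap. Shares in tiles as rich in these C2C12 peaks were not computed. Of the peaks that were not on donor peaks, both after NT and 2 of 4 with Toca1 overlapped such a C2C12 peak. The share over all peaks off donor peaks was not computed, so these counts do not set the loci apart. Only 1 of the 4 peaks after NT, at Junb, was overlapped by a Toca1 peak, against 44.3% of all peaks after NT.

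Peak widths at shared sites varied from site to site. The peaks after NT were 0.536 (Jun) and 0.914 (Junb) times as wide as the donor peaks they overlapped, and the median over all 3942 overlapping pairs was 0.717. The Toca1 peaks were 0.545 to 2.03 times as wide as their donor peaks, with a median of 1.21 over 5 pairs against 1.24 over all pairs. With peaks up to 150 bp apart joined, the Toca1 median was 0.945, below 1. Without joining, they were wider at both Myc sites and the outer Junb site and narrower at Fos and the inner Junb site. The C2C12 peaks of the 50000-cell list were wider than the donor peaks in 22 of 28 pairs, against 61.3% of all pairs, with a median ratio of 1.26 against 1.11. Width depends on depth as well as on the site, and their parts were not tested.

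**Figure D5:**
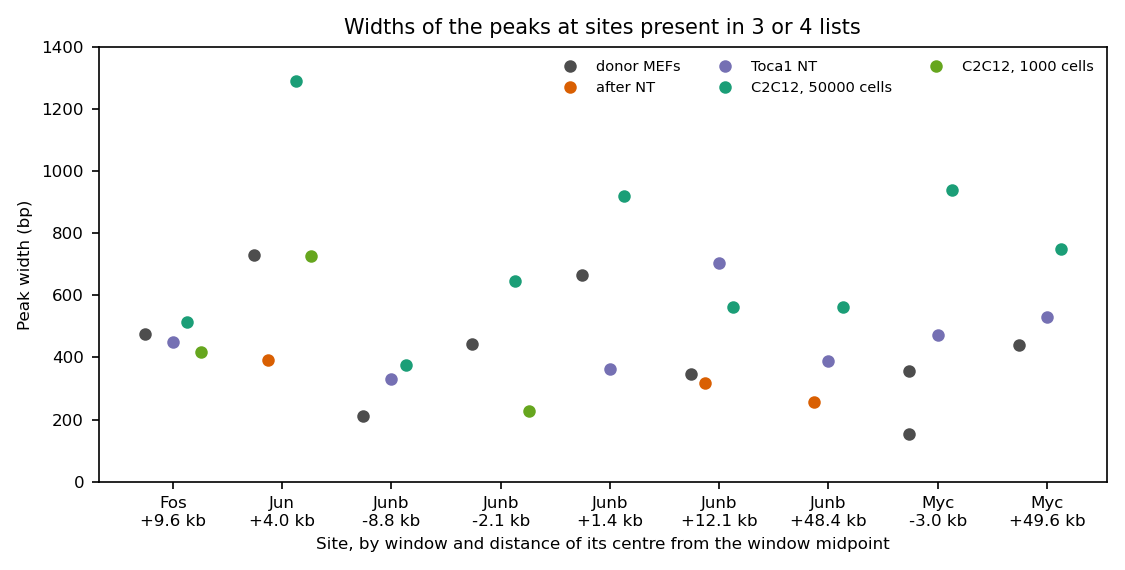
Width in bp of each peak at the 9 sites found in 3 or 4 lists, named on the x axis by window and by distance from the midpoint, with 1 colour per list. The highest point is the 1290-bp Jun peak of C2C12 from 50000 cells, and the Fos site is the most even, from 419 to 514 bp.

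Sharing between donor MEFs and C2C12 from 50000 cells was within the range of the whole lists. Of the 36 donor peaks, 28 overlapped a peak of C2C12 from 50000 cells (77.8%, interval 61.9% to 88.3%), against 64.6% of all donor peaks. From the side of C2C12, 27 of 43 peaks overlapped a donor peak (62.8%, interval 47.9% to 75.6%), against 48.4% of the list. Both whole-list shares lie inside the intervals. The centres of the 28 pairs differed by a median of 50 bp, against 62 bp over all pairs. Sharing was most complete at Fos, with 6 of 7 donor peaks and 6 of 6 C2C12 peaks. It was least complete from the side of C2C12 at Myc, with 4 of 10 peaks, and at Junb, with 10 of 18.

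The list from 1000 C2C12 cells held 12 peaks in the windows, and 4 of them overlapped a peak from 50000 cells (33.3%, interval 13.8% to 60.9%), against 8.48% of the whole list. The windows held 2.85 to 8.55 times the mean number of peaks from 50000 cells, which leaves more room for overlap. The share in tiles as rich in peaks was not computed, so this difference is not read as a trait of the loci. These were the 4-list sites of Fos and Jun and a pair of Junb sites, 2.11 kb below and 19.53 kb above the midpoint. At the first Junb site the widths were 229 and 647 bp, and at the second 424 and 216 bp. The other 8 were in no other list, 4 of them at Jun. They included the site nearest the Jun midpoint, 2.37 kb below it, with a width of 196 bp. The widest peaks of this list at Junb (502 bp, 35.34 kb above the midpoint) and Myc (490 bp, 30.74 kb above) were also among them. By the labels, libraries from 1000 cells skipped the purification step of the others, and the part of this step in the sharing was not tested.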

How the data were processed

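The 5 peak lists deposited by the authors were used. Per the labels, reads were processed with genome build mm9, and the submitters' processing notes name Bowtie2 2.2.1, Picard and MACS2 2.1. How libraries of 1 condition were combined is not given in the sources used here. The deposited values are other than a count or a signal: chromosome, start and end of each peak, called at a false discovery rate of 0.01. Lists were tied to conditions by their names. Depth is unknown. Peaks overlapping the windows by at least 1 bp were taken, and the same overlap defined sharing. Tiles were laid from the first base of each chromosome to its largest peak end. Intervals are 95% Wilson intervals. No test was run, since each condition has 1 list. Named sites were those in at least 3 lists, those nearest each midpoint, the widest peak of each list in each window, and peaks after NT or with Toca1 at least 5000 bp from donor peaks. The other sites described were chosen after their values were seen. The other immediate-early and AP-1 genes listed for description were not placed, because no mm9 annotation was used. The windows and lists were chosen with earlier results of these data known. Promoters came from the RefSeq table of GRCm38.p6, in which 3 of 4 members matched. Alternatives were windows of 50 and 200 kb, peaks of at least 250 bp, neighbours within 150 bp joined, a reciprocal overlap of 50%, and sharing within 500 bp. The overlap code was tested on simulated peaks. Python 3.11.15, numpy 2.4.6, scipy 1.17.1 and matplotlib 3.10.9 were used.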

Additional observations from a re-analysis of the deposited data

How the results depend on the processing

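Of 50 alternative values for the counts, shares and width ratios of the 4 windows, 44 stayed within 1.5 times the count, within the Wilson interval or within 1 SD of the ratios, and 6 counts moved, all with the window length or the minimum width. The limits for shares and ratios were wide, for example 1.54% to 18.1% for donor peaks kept after NT, or an SD over 2 ratios. Staying within them therefore says little. With windows of 200 kb, 10 peaks were listed after NT, 15 with Toca1 and 23 in C2C12 from 1000 cells. With windows of 50 kb, C2C12 had 26 peaks from 50000 cells and 5 from 1000 cells. With peaks of at least 250 bp, C2C12 from 1000 cells had 7 peaks. The share of donor peaks kept after NT ran from 2.78% (reciprocal overlap of 50%) to 8.51% (windows of 200 kb) and that kept with Toca1 from 8.33% (reciprocal overlap of 50%) to 19.4% (peaks within 500 bp). Under the reciprocal overlap the Jun peak after NT no longer counted as shared. With peaks up to 150 bp apart joined, the median Toca1 to donor width ratio fell from 1.21 to 0.945, and this was counted among the 44. No paired analysis was possible because the libraries of a condition share 1 list, and no library could be left out for the same reason.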

Other observations

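The nearest peak below the Myc window was 1108302 bp away after NT and 1109995 bp with Toca1, against 36416 bp in donor MEFs and 68506 bp in C2C12 from 50000 cells. Above it the nearest peak was 61153 bp away after NT and 1954114 bp with Toca1, against 5358 bp in donor MEFs and 75 bp in C2C12 from 50000 cells. Above the Jun window the distances were 757907 bp after NT, 47950 bp with Toca1 and 45103 bp in donor MEFs, while below it peaks of the 3 lists lay 4040, 3886 and 3951 bp away. In C2C12 from 1000 cells the distances at Jun were 69522 bp above and 539350 bp below. Such distances depend on list size (39592 peaks in donor MEFs, 8257 after NT, 16412 with Toca1). Their spread over the whole lists was not computed, so they do not set these loci apart.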
